A study of Mus musculus with 10 samples.

Results

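H3K4me2, the dimethylation of lysine 4 on histone H3, was compared in whole mouse retina between a late embryonic stage (E17.5) and postnatal day 1 (PN1). The comparison rests on 2 of the 10 samples of the series, 1 ChIP-Seq library at each stage. It takes in all 20045 gene symbols of the deposited table, which has 25152 entries. A symbol with more than 1 entry was represented by the one whose 8 libraries added up to the most. The change of a symbol is the log2 ratio of its PN1 to its E17.5 value, with 1 added to each, minus the median of that ratio over all symbols. Positive changes are higher at PN1.

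The series followed H3K4me2 and H3K27me3 through retinal maturation with 1 library per mark and stage, made from MNase-digested nuclei of at least 20 pooled retinas. More H3K4me2 per cell and more cells that carry it cannot be told apart in such pools. The labels name the Pde6b rd1/rd1 strain, whose rods degenerate, for every library, whereas the methods of the study describe C57BL/6j wild type for the stage libraries. The first stage is written E17 in the labels and E17.5 in their protocol, and the sex of the retinas is not given in the sources used here. An H3K4me2 library from rd1 retina and an anti-GFP control were not analysed here.

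H3K4me2 lies on nucleosomes around the start sites and enhancers of genes that are active or held ready for activation, and is scarce over genes that a tissue does not use. Around birth the mouse retina still holds many dividing progenitors. Ganglion cells, cones and horizontal cells are mostly born by then, rods are being born in large numbers, and bipolar cells and Müller glia come last. The outer segments of rods, stacks of membrane discs that capture light, form later.

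A value, the normalized occupancy, stands for the reads within 2.5 kb of an annotated start site, scaled by the authors and rounded to whole numbers. All windows have the same length, so levels can be set side by side between genes. The spacing of the whole numbers gave 0.536 as the value of 1 read at E17.5 and 0.946 at PN1, which makes about 1517752 and 607439 reads over the windows of all symbols, so the shallower PN1 library sets most of the error. Values in parentheses below are 95% intervals for counting the reads, exact Poisson for a level and conditional binomial for a change, the latter without the added 1. They cover counting error only. With no second library at either stage, no difference was tested and no p-value is given.

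The regions just upstream of 4 genes are shown as examples of the photoreceptor and replication genes described below. Rbp3 and Crx are photoreceptor genes called higher at PN1, and capitals in them mark TAATCC or its reverse complement GGATTA, the core of the site that OTX2 and CRX bind. Mcm5 and Rrm2 are S-phase genes called lower at PN1, and capitals in them mark CCAAT or its reverse complement ATTGG. Each sequence is the 250 bases before the annotated gene start, 5′ to 3′ on the strand of the gene, from the mm9 genome with GENCODE gene starts. These need not be the starts of the entries whose occupancy was used. The Rbp3 sequence is chr14:34766958-34767207, plus strand, that of Crx is chr7:16465318-16465567, minus strand, that of Mcm5 is chr8:77633177-77633426, plus strand and that of Rrm2 is chr12:25392856-25393105, plus strand.
Rbp3: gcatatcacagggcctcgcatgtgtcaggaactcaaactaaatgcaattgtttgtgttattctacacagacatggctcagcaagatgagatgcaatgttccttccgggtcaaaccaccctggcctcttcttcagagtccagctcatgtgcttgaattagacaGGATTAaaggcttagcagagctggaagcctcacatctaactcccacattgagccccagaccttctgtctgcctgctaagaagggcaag
Crx: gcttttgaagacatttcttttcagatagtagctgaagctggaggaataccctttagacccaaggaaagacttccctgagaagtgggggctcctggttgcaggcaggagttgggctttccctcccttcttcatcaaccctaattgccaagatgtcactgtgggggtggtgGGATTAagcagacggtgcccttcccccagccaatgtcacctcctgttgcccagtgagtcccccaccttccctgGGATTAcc
Mcm5: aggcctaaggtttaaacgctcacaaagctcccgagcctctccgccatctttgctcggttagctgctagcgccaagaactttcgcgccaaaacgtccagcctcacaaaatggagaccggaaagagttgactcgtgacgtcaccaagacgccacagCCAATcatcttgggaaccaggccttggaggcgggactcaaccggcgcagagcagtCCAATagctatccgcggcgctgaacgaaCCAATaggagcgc
Rrm2: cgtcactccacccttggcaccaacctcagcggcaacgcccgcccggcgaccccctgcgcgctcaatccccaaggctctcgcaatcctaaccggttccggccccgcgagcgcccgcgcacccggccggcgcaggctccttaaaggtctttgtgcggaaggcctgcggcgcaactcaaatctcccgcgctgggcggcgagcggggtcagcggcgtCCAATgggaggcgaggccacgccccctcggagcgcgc

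A fault of the table bears on the E17.5 library and has to come first. The table is sorted by name, and in 11 runs of names with hyphens (328 entries) the order differs when hyphens are ignored. With the E17.5 values of H3K4me2 read in that other order, their mean distance from the other stages of the mark went from 1.02 to 0.618 in log2 units. Over the same entries this distance grew in each of the other 7 libraries, for example from 1.35 to 1.54 at PN1 and from 0.629 to 1.06 for H3K27me3 at E17.5. The effect was largest in the 53 entries from H2-Aa to H2afz, where the distance went from 2.24 to 0.534. By single run it became smaller in 7 of the 11, did not change in 3 and grew in 1, from 0.666 to 0.746 at Krtap1-3 to Krtap14. The 3 runs that hold marked symbols were among the 7. Whether the entries of the other runs are out of order is not settled by these values.

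For short, all 328 entries are called displaced below. H2-DMb1, a gene of antigen presentation, is listed at 76 at E17.5 and 2 at PN1, and its E17.5 value in the other order is 3. H2afy2, which encodes a macroH2A histone, is listed at 4 and 40, with 65 in the other order. Of the 15 largest changes in each direction, 7 upward and 12 downward ones belong to displaced entries. The single genes described in the comparisons below lie outside them.

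Occupancy had a median over all symbols of 41 (E17.5) and 27 (PN1), a median log2 ratio of −0.42 before centring. A symbol was taken as marked when the mean of both stages was at least 20, which held for 12702 symbols (63.4%) with medians of 58 and 40. It was called higher or lower when it lay at least 1.5-fold from the median change of all symbols. Of the marked symbols, 145 (1.14%) were called higher at PN1 and 814 (6.41%) were called lower. Without the displaced entries the counts were 137 and 797 of 12671. The scatter of the PN1 against the E17.5 occupancy shows marked symbols as 1 narrow cloud, with most displaced entries outside it.

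**Figure D1:**
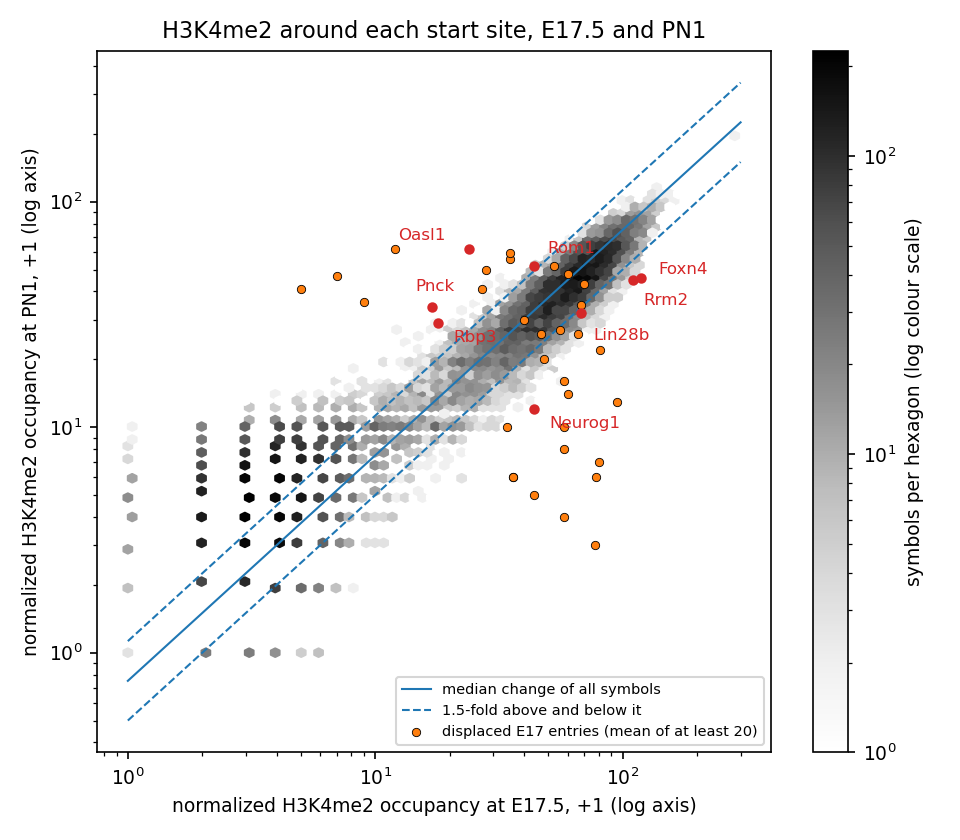
Normalized H3K4me2 occupancy plus 1 at E17.5 (x, log axis) and PN1 (y, log axis), with hexagons shaded by the number of symbols. The solid line is the median change of all symbols and the dashed lines lie 1.5-fold from it. Orange points are displaced E17.5 entries with a mean of at least 20, and red points are genes named in the text.

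The change depended on the level of the mark. Symbols with a mean of 5 to below 10 had medians of 5 and 7 and a median change of 0.90, while marked symbols had a median change of −0.12. The preponderance of lower calls moved with this. With the median of the marked symbols as the centre, 300 were called higher and 390 lower, and with the median of symbols of equal level (level-matched centring) 288 (2.27%) and 386 (3.04%). Lower calls made up 84.9% of all calls as first computed, and 56.5% and 57.3% under these 2 choices. Lists of genes are therefore set beside the −0.12 of all marked symbols, and beside their level-matched median, which is 0 for all marked symbols.

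The spread between symbols was near that of counting reads. At a mean of 40 to below 60 the SD of the change was 0.278 between symbols and 0.262 from counting, and at 80 or more it was 0.228 and 0.195. Of the 137 symbols called higher, 88 had an interval above 0, and of the 797 called lower, 641 had an interval below 0. Among all 12671 marked symbols these numbers were 147 and 948. Set against the median of all marked symbols in place of 0, the interval excluded it for 108 of the 137 and for 410 of the 797 (51.4%). Among all 12671 marked symbols it did so for 787 (6.21%). Calls and intervals use the same values, so high shares among the calls are favoured by the choice. The same holds for intervals of single genes picked for their change. The whole interval lay beyond 1.5-fold for 2 of the 137 and 5 of the 797.

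**Figure D2:**
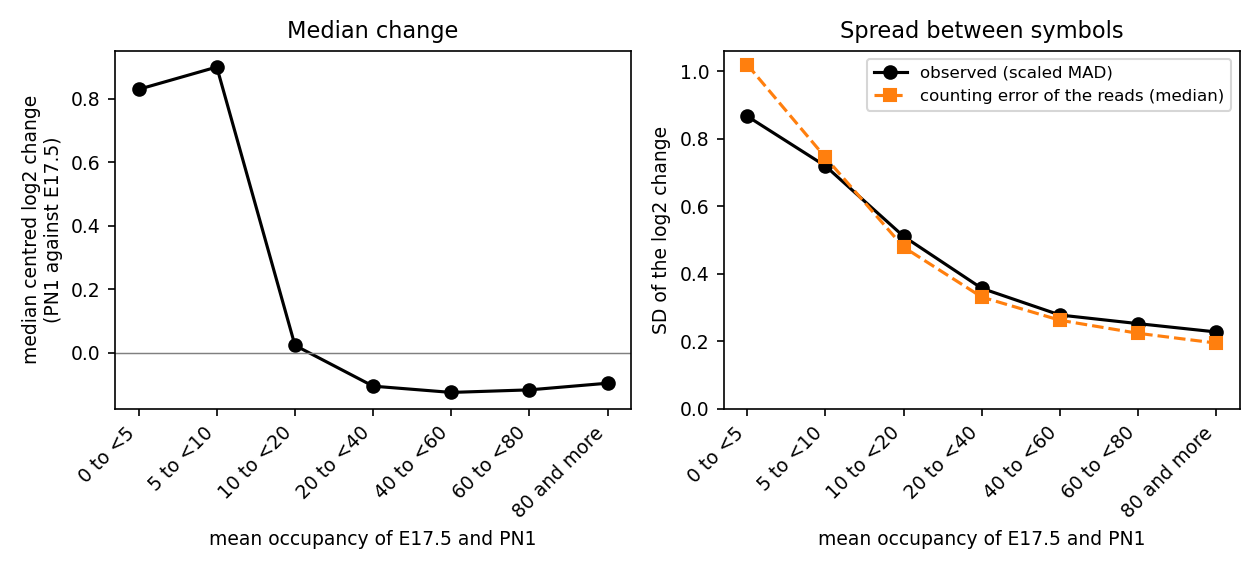
Left, median centred log2 change from E17.5 to PN1 (y) by mean occupancy of the stages (x), which is 0.83 and 0.90 in the lowest bins and between −0.13 and −0.10 from 20 upward. Right, SD of the change between symbols (black, scaled median absolute deviation) and median SD from counting reads (orange) in the same bins.

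Among the lists, the outer segment and disc genes lay furthest toward higher H3K4me2 at PN1 among those with at least 10 marked members. They encode the discs, their retinoid enzymes and the matrix around them. Of 21 members in the table, 11 were marked, with a median change of 0.28 (quartiles 0.01 and 0.59). Of the 11, 3 were called higher, Rbp3, Mak and Rom1 (27.3%, against 1.14% of all marked symbols), and 0 lower (against 6.41%). A gene with 1 stage under 20 passed the minimum only through the stage where it is high, as Rbp3 did here. On the E17.5 side this holds below for each gene with a PN1 value under 20, such as Gnat2, Irx1, Gfap, Neurog1 and Olig1, so counts and shares over members that passed are a description in every list. Over all 21 members the median change was 0.25 and the level-matched median 0.18, with 14 of 21 above 0. Erythroid markers lay higher by both medians over all their members (0.97 and 0.49), and lens markers by the first only (0.42 and −0.27). With level-matched centring 4 of the 11 marked outer segment genes were called higher, against 2.27% of all marked symbols. The summed occupancy of the outer segment list was 6.73 per 10000 of that of all symbols at E17.5 and 8.34 at PN1. Lists of weakly marked genes also gained in share, such as clustered protocadherins (6.53 and 8.62). Olfactory receptors, with 0 of 1044 marked and medians of 2 and 3, went from 30.2 to 67.6. Endothelial markers, with 15 of 20 under the minimum, went the other way (6.06 and 5.48). Signal at olfactory receptors was thus a larger part of the summed PN1 occupancy, and the shares are not corrected for it. With the median of olfactory receptor symbols subtracted, the median change of the marked outer segment genes was 0.32, against −0.08 for all marked symbols. Of the 21 outer segment members, 10 were under the minimum.

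Rbp3 encodes the retinoid-binding protein of the matrix between photoreceptors and pigment epithelium. It had an occupancy of 17 (11.7 to 24.2) before birth and 28 (19.1 to 40.5) after it, a change of 1.10 (0.37 to 1.91). The intervals of the 2 levels overlap, and that of the change lies above 0. Rom1, a structural protein of disc rims, had 43 and 51, a change of 0.66 (0.14 to 1.18). Mak, a kinase of the photoreceptor cilium, had 21 and 27, a change of 0.76 (0.06 to 1.54), but another of its entries had 7 and 5, a change of 0.

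Other members of the list lay on either side. Gm11744 had 26 and 28, a change of 0.52. Crb1, a polarity protein of the outer limiting membrane, had 88 and 66, a change of 0.01. Prph2, the partner of Rom1 in disc rims, had 19 and 10, a change of −0.45 (−1.56 to 0.58). Rdh12, a retinol dehydrogenase, had 28 and 16, a change of −0.36. The 2 disc rim genes thus had opposite signs, and the interval for Prph2 includes 0.

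**Figure D3:**
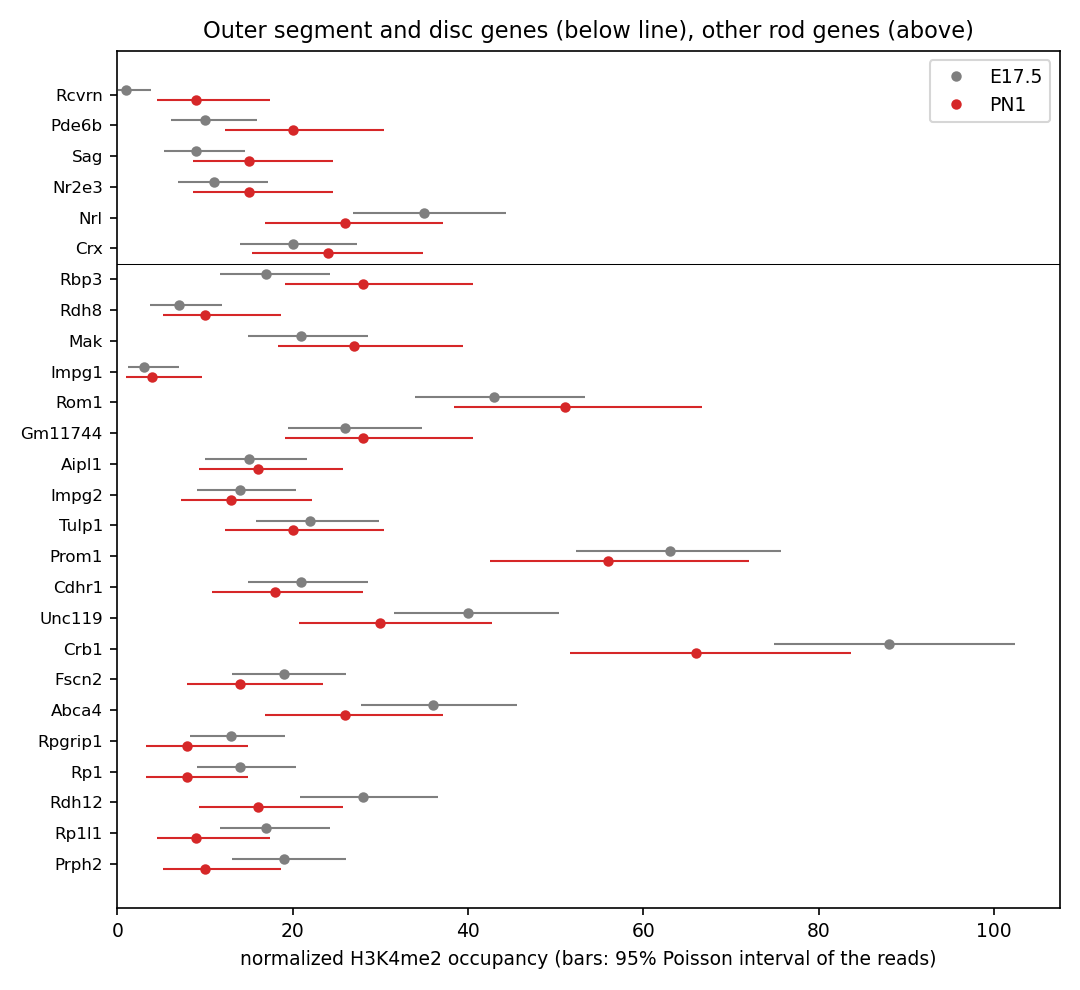
Normalized H3K4me2 occupancy (x) at E17.5 (grey) and PN1 (red) of 20 of the outer segment and disc genes, ordered by change, and above the line of 6 other rod genes. Bars are 95% Poisson intervals of the reads of a single library. Most pairs of bars overlap, and among the outer segment and disc genes red lies right of grey from Aipl1 up to Rbp3.

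No transcription factor upstream of rods had an interval that excluded 0 among the 4 described here. Crx, the homeobox factor of photoreceptor precursors, had 20 and 24, a change of 0.67 (−0.12 to 1.44), and its second entry had 34 and 41, a change of 0.68. Nrl, which directs precursors to the rod fate, had 35 and 26, a change of 0.00. Otx2, which acts before Crx, had 73 and 58, a change of 0.09. Nr2e3, which represses cone genes in rods, had 11 and 15 and was not marked. Of the 14 marked photoreceptor regulators, 1 was called higher (7.14%, against 1.14% of all marked symbols) and 0 lower (against 6.41%), with a median of −0.09.

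Rod phototransduction genes were little marked at either stage. Only 6 of 21 in the table were marked, of which 0 were called higher and 1 lower (16.7%, against 6.41% of all marked symbols), Reep6, a protein of rod transport vesicles, at 38 and 18, whose call ended with level-matched centring (−0.53). Over all 21 the level-matched median was −0.06 with 8 above 0. Rcvrn, which encodes recoverin, had 1 and 9, the first of them under the 1.61 that 3 reads equal at E17.5. Pde6b, a subunit of the rod phosphodiesterase, had 10 and 20, a change of 1.35 (0.41 to 2.36). Sag, rod arrestin, had 9 and 15. Values this low have to be read against the upward shift of all symbols at that level, and level-matched changes were 1.84 for Rcvrn, 1.30 for Pde6b and 1.04 for Sag. Rcvrn and Pde6b were chosen after their values were seen, while only 8 of the 21 lay above 0 by this measure. Among 19 cone genes 7 were marked, with 0 called higher and 1 lower (14.3%, against 6.41%, or 3.04% with level-matched centring), Gnat2, the cone transducin, at 32 and 11 with a change of −1.04 (−2.12 to −0.18).

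Cell cycle and DNA replication genes were all marked. Of 50, 0 were called higher and 4 lower, with a median of −0.24 and a level-matched median of −0.11. The share called lower was 8%, against 6.41% of all marked symbols, and with level-matched centring the same number was called lower, against 3.04%. Rrm2, a subunit of ribonucleotide reductase, had 109 (94.8 to 125) and 44 (32.7 to 59.1), a change of −0.87 (−1.37 to −0.42). Mcm5, a subunit of the replicative helicase, had 74 and 31, a change of −0.81 (−1.42 to −0.27). Wee1, an inhibitory kinase of mitotic entry, had 80 and 34, and Cdk1, the kinase it acts on, 69 and 30. Other replication genes lay higher than Mcm5. Mcm2 had 54 and 41 (change 0.03), Mcm3 33 and 29 (0.23) and Pcna 83 and 54 (−0.20).

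Retinal progenitor regulators as a list lay at the median of all marked symbols, at −0.12, with 0 of 34 called higher and 2 lower (5.88%, against 6.41% of all marked symbols). These were Foxn4, a forkhead factor for amacrine and horizontal cell fates, at 118 and 45 (−0.96, −1.44 to −0.50), and Sfrp2, a secreted modulator of Wnt signalling, at 90 and 35 (−0.92, −1.50 to −0.43). Toward the other end of the list, Fgf15, a growth factor that progenitors secrete, had 104 and 99 (0.34), and its interval includes 0.

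Of 13 marked proneural factors, which start neuronal differentiation, 1 was called higher (7.69%, against 1.14% of all marked symbols) and 2 lower (15.4%, against 6.41%). Neurog1 had 43 and 11, a change of −1.46 (−2.51 to −0.62), and Olig1, an oligodendrocyte lineage factor, 54 and 15, a change of −1.37 (−2.28 to −0.65). Neurod4, a factor of amacrine and bipolar cell genesis, had 36 and 42, a change of 0.63 (0.05 to 1.20). In the Notch pathway, which keeps progenitors undifferentiated, 0 of 27 were called higher and 2 lower (7.41%, near the 6.41% of all marked symbols). These were Hes7 at 111 and 45 and Rfng at 63 and 28. With level-matched centring 2 were called lower, against 3.04% of all marked symbols.

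Among neuronal types, the early-born ganglion cells had 0 of 29 marked genes called higher and 4 lower (13.8%, against 6.41% of all marked symbols), with a median of −0.21 and a level-matched median of −0.08. With level-matched centring 2 of the 4 calls remained, against 3.04% of all marked symbols, those of Gap43 (−0.45) and Ebf2 (−0.46) being lost. The 4 were Elavl3, a neuronal RNA-binding protein (47 and 16, −1.08), Rbpms, another RNA-binding protein (77 and 34, −0.74), Gap43, a growth cone protein (78 and 38, −0.60), and Ebf2 (87 and 43, −0.58). Amacrine genes had 0 of 20 and bipolar genes 0 of 18 called either way, with medians of −0.11 and −0.14. Horizontal cell genes had 0 of 9 called higher and 2 lower (22.2%, against 6.41%), among them Foxn4, and 2 with level-matched centring. Müller glia genes had 1 higher and 1 lower of 24 (4.17% each, against 1.14% and 6.41% of all marked symbols) and a median of −0.03. The higher one, Nfix, had 24 and 34 in the entry used but 70 and 26 in its other entry, so its direction depends on the entry.

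Axon guidance genes, which steer growing axons, had 0 of 51 called higher and 8 lower (15.7%, against 6.41% of all marked symbols) with a median of −0.15. With level-matched centring their median was −0.03 and 3 were called lower, against 3.04% of all marked symbols. The 8 include Nrp2, a semaphorin receptor (79 and 34, −0.78), Ntn1, which encodes netrin-1 (69 and 30, −0.76), and Slit1 (76 and 36, −0.64), whose call was lost with level-matched centring (−0.49). Presynaptic genes had 1 of 31 called higher (3.23%, against 1.14%) and 4 lower (12.9%, against 6.41%). With level-matched centring 1 and 3 were called, against 2.27% and 3.04%. The 4 called lower include Unc13a, a vesicle priming factor (71 and 28, −0.90, −1.54 to −0.33). The one called higher was Cplx4, a complexin of photoreceptor synapses (19 and 23, a change of 0.68 with an interval that includes 0). Neurotransmitter receptor genes had 0 of 35 called higher and 4 lower (11.4%, against 6.41%), Grin3a and the nicotinic subunits Chrna3, Chrna4 and Chrna5. With level-matched centring 1 and 2 were called, against 2.27% and 3.04%.

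The fetal growth and heterochronic genes, which are used before birth in many tissues, had a median of −0.34 and a level-matched median of −0.22, with 0 of 18 called higher and 2 lower (11.1%, against 6.41%). With level-matched centring 0 were called, and Lin28b and Hmga2 were at −0.57 and −0.55. Lin28b, a repressor of let-7 processing, had 67 and 31, a change of −0.67 (−1.29 to −0.12). Hmga2, a chromatin protein of fetal tissues, had 105 and 49, a change of −0.67 (−1.15 to −0.23). Igf2bp3 had 104 and 54, a change of −0.52 (−0.98 to −0.10).

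The homeobox and forkhead family regulators, a list that also holds SOX, GATA and T-box factors, had 16 of 96 called lower (16.7%, against 6.41% of all marked symbols) and 0 higher, with a median of −0.26 and a level-matched median of −0.11. With level-matched centring 10 were called lower, against 3.04% of all marked symbols. The 16 include Irx1 (31 and 9, −1.26), Sox14 (53 and 19, −1.02) and Pax9 (67 and 25, −0.97), all developmental transcription factors. H3K27me3, the repressive mark of Polycomb, had a median of 443.5 over these 96 at PN1, against 10 over all marked symbols. Over all marked symbols outside the displaced entries, 10.4% of the 2178 with a mean H3K27me3 over 40 were called lower and 5.02% of the 6430 at 10 or less, and 1.70% and 0.731% were called higher. At an H3K4me2 level of 40 to 80 the shares called lower were 9.34% and 4.35%, at 20 to 40 they were 11.5% and 9.68%, and at 80 or more 2.82% and 2.06%.

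General lists are given for reference. Cytosolic ribosomal protein genes had 1 of 79 called higher and 3 lower with a median of −0.04, and oxidative phosphorylation genes 0 of 76 higher and 3 lower with −0.06. Enzymes that set or remove H3K4 methylation had 0 of 18 called either way. Of genes that the study listed for RNA that goes up between E16.5 and PN15, 5 of 102 marked ones were called higher (4.90%, against 1.14% of all marked symbols) and 8 lower (7.84%, against 6.41%), with a median of −0.05. With level-matched centring they were 7 and 5, against 2.27% and 3.04%. The study took these lists from earlier retinal RNA data. Of those listed for RNA that goes down, 0 of 114 were called higher and 9 lower (7.89%, against 6.41%), with a median of −0.14, and 1 member is a displaced entry.

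**Figure D4:**
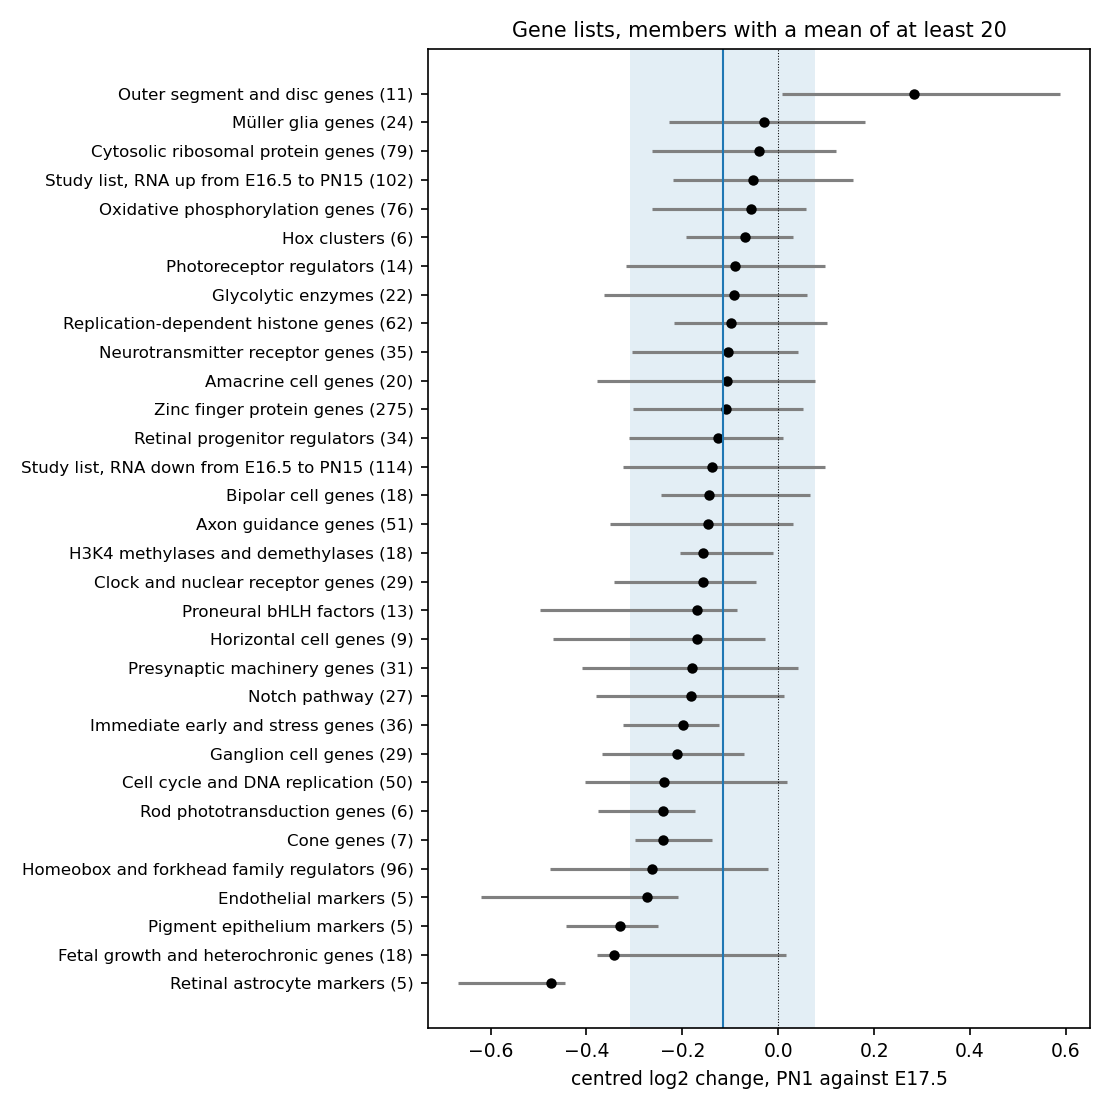
Median (point) and quartiles (bar) of the centred log2 change (x) of the marked members of each list that has at least 5 of them, with their number in parentheses. The blue line and band are the median (−0.12) and quartiles (−0.31 and 0.08) of all marked symbols. Outer segment and disc genes lie right of the band in their median (0.28), and retinal astrocyte markers (−0.47), fetal growth genes (−0.34) and pigment epithelium markers (−0.33) left of it.

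Markers of other cells in the eye were checked in whole lists, few of whose members were marked, so their calls are given as numbers of genes beside the 6.41% of all marked symbols called lower and the 1.14% called higher. Retinal astrocyte markers had 0 of 5 marked genes called higher and 2 lower, Gfap, the glial filament (31 and 12), and Fgfr3 (71 and 33), and summed to 302 and 167 over all 8 (3.72 and 2.91 per 10000 of all symbols). Endothelial markers summed to 493 and 315 (6.06 and 5.48 per 10000), with 2 of 5 called lower, Fli1, a vessel transcription factor, and Cldn5, a tight junction protein. Pigment epithelium markers summed to 315 and 205 (3.87 and 3.57 per 10000) with 0 of 5 called. The calls of Fgfr3 and Cldn5 ended with level-matched centring, at −0.53 for both. Only 1 of 16 microglia markers (sums 107 and 91, or 1.32 and 1.58 per 10000) and 2 of 22 lens markers (216 and 195, or 2.66 and 3.39 per 10000) were marked. Of the 2 lens markers 1 was called higher, Crygd, a lens crystallin, at 19 and 22 (0.62, −0.20 to 1.43). Of 16 erythroid markers, which summed to 164 and 154 (2.02 and 2.68 per 10000), 3 were marked, with 0 called higher and 1 lower, Klf1, a red cell factor, at 45 and 21 (−0.65, and −0.52 with level-matched centring). The adult beta globin Hbb-b1 was at 4 and 5. The part of these cells in any difference was not tested.

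Symbols with the largest changes outside the displaced entries were mostly outside the lists. Oasl1, an interferon-induced gene, had 23 (16.7 to 31.0) and 61 (46.6 to 77.3), a change of 1.78 (1.23 to 2.40), and it is at 6 at PN7. Pnck, a calmodulin-dependent kinase gene on the X chromosome, had 16 and 33, a change of 1.42 (0.71 to 2.21). Tlr3, a receptor for double-stranded RNA, had 16 and 27, a change of 1.13 (0.40 to 1.97). Cacna2d4, a calcium channel subunit of photoreceptor synapses, had 17 and 26, 2-fold above the median change (interval of the log2 change 0.20 to 1.78). On the lower side 4930525F21Rik had 56 and 9 (−2.10, −3.26 to −1.22), followed by 0 at PN7 and 261 at PN15. Crhr1, a receptor for corticotropin-releasing hormone, had 57 and 15 (−1.44, −2.35 to −0.73).

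Calls were also counted by chromosome, without a test. Of 344 marked X-linked symbols, 16 (4.65%) were called higher and 25 (7.27%) lower with a median of −0.02, against 119 (0.986%) and 756 (6.26%) of 12070 autosomal symbols with −0.12. Medians of single autosomes ran from −0.14 to −0.09. X-linked symbols had lower levels, with medians of 34 and 25 against 59 and 41. At a level of 20 to 40 the X-linked median was −0.03 and the autosomal one −0.12, with 4.62% against 2.91% called higher and 7.59% against 10.04% called lower. At a level of 40 to 80 there were 41 X-linked symbols, of which 2 (4.88%) were called higher and 2 lower, against 0.244% and 5.07% of 7790 autosomal ones. All 12 Y-linked symbols together summed to 51 and 29, a change of −0.40 (−1.01 to 0.22). Different proportions of male and female retinas in the pools cannot be told apart from a change of the mark on these chromosomes.

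Levels at the later stages took part in the calls only through the choice of entry for symbols with more than 1. Levels are given here relative to the median of marked symbols in each library. The 137 symbols called higher had median relative levels of 0.414, 0.775, 0.595 and 0.529 over E17.5, PN1, PN7 and PN15. The 797 called lower had 0.966, 0.625, 0.946 and 0.809. Both sets were chosen by extreme values of single libraries, so a return toward E17.5 at PN7 is favoured by that choice and nothing is read from it. PN1 was the lowest of the 4 stages for 553 of the 797 called lower and for 4921 of all 12671 marked symbols, a count that the choice of low PN1 values favours.

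Single genes varied. Rbp3 had relative levels of 0.293, 0.70, 1.43 and 1.87 over the 4 stages, and Cacna2d4 0.293, 0.65, 1.05 and 1.72. Crx had 0.345, 0.60, 0.568 and 2.32, so that most of its increase came after PN7. Rrm2 had 1.88, 1.10, 1.05 and 0.691, and Foxn4 2.03, 1.12, 1.11 and 0.397. Lin28b had 1.16, 0.775, 0.0811 and 0.235. Hmga2, at 1.81, 1.23, 3.65 and 0.559, was highest at PN7. Mcm5 had 1.28, 0.775, 1.22 and 0.956, Sfrp2 1.55, 0.875, 1.81 and 0.574, and Mak 0.362, 0.675, 0.568 and 1.29. The summed outer segment list had 6.73, 8.34, 10.4 and 22.0 on the same scale as above.

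**Figure D5:**
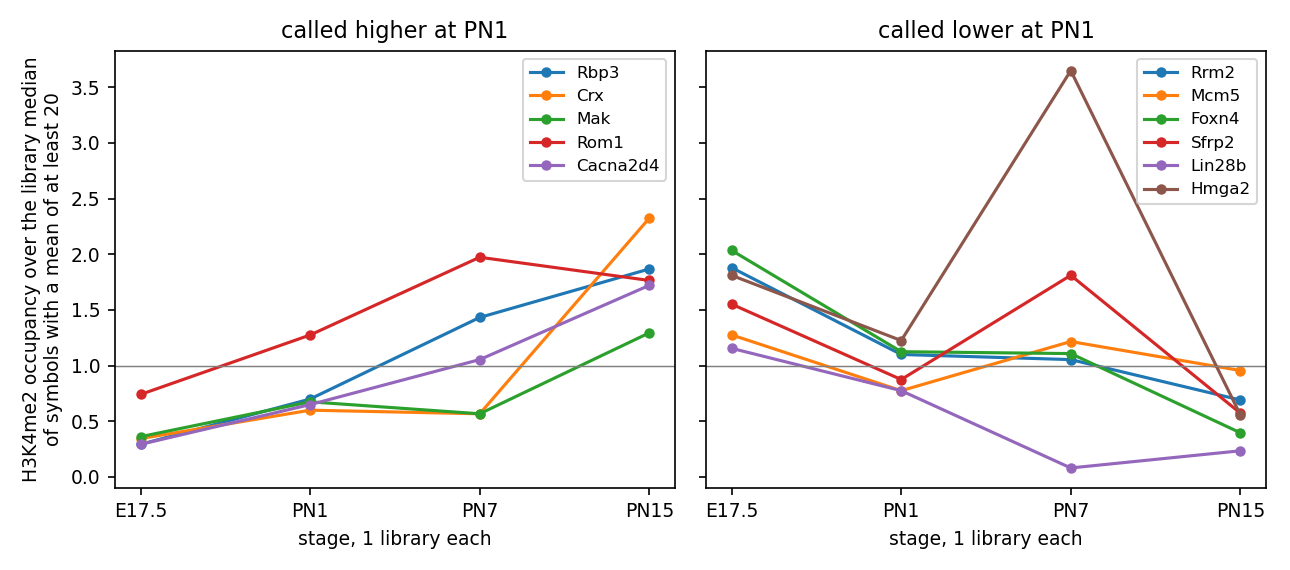
H3K4me2 occupancy divided by the library median of symbols with a mean of at least 20 (y) at the 4 stages (x), 1 library each, without error bars, for genes called higher (left) and lower (right) at PN1. Rbp3 and Cacna2d4 increase at each step, Crx and Mak mainly after PN7, and Hmga2 peaks at 3.65 at PN7.

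The sequences around the starts of called genes were compared with those of all marked genes. A GENCODE gene start was used, which need not be the start of the entry that gave the occupancy. Sequence was available for 135 of the genes called higher, 781 of those called lower and 12414 of all marked genes, and shares are of these. In the 5 kb around the start, the median ratio of observed to expected CpG was 0.334 for genes called higher, 0.438 for genes called lower and 0.432 for all marked genes. At a level of 20 to 40, which holds most genes called higher, it was 0.320, 0.397 and 0.368. In the 300 bases from 250 before to 50 after the start, TAATCC on either strand was found in 14 (10.4%) of genes called higher, 48 (6.15%) of those called lower and 752 (6.06%) of all. CCAAT was found in 29.6%, 36.9% and 38.3%, GGGCGG in 51.1%, 65.6% and 63.8%, CCGGAAG in 8.89%, 12.8% and 16.7%, and TATAAA in 6.67%, 7.04% and 7.02%. For CAGCTG the shares were 11.9%, 12.2% and 14.1%, for CACGTG 9.63%, 10.1% and 10.03%, and for TAATTA, which shares its first 4 bases with TAATCC, 2.96%, 3.07% and 2.42%. At a level of 20 to 40 the shares in the same order were 12.4%, 6.30% and 6.90% for TAATCC, 31.0%, 35.9% and 35.0% for CCAAT, 51.3%, 62.5% and 58.9% for GGGCGG and 7.08%, 7.397% and 10.7% for CCGGAAG. These matches describe the letters of the windows and were not tested.

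In the printed sequences, TAATCC or its complement begins 88 bases before the start of Rbp3 and 81 and 8 bases before that of Crx. CCAAT or its complement begins 96, 41 and 13 bases before the start of Mcm5 and 37 bases before that of Rrm2. The same windows of Mak, Rom1 and Neurod4 hold no TAATCC, and that of Foxn4 no CCAAT.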

How the data were processed

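For the H3K4me2 ChIP-Seq libraries, the authors used Bowtie 0.12.4 (submitters' processing notes) for mapping, took the midpoint of each uniquely mapped read for fragments of 190 bp, counted these within 2.5 kb of each annotated start and normalized them to the reads of the library. The deposited values are treated as a score, because they are normalized occupancies rounded to whole numbers. No column was left without a sample. One library per stage allowed neither replicates nor a test. Symbols, centring, the minimum mean of 20, the 1.5-fold call and the pseudocount of 1 are as given above. Reads behind a value were recovered approximately, from a spacing that accounted for 0.752 (E17.5) and 0.784 (PN1) of the sum of squares of the unevenness with which neighbouring whole numbers occur. Genes named are the 15 largest changes in each direction, the called and the 3 most extreme members of each list in each direction, and examples of the study. Aipl1, Cacna2d4, Crhr1, Gm11744, Mcm2, Mcm3, Otx2, Pcna, Pde6b, Prph2 and Rcvrn fall outside this rule and were chosen after their values were seen. Some list members are not reported here by name. Members and lists were chosen with earlier results of these data known. Python 3.11.15, numpy 2.4.6, pandas 2.3.3, scipy 1.17.1 and matplotlib 3.10.9 were used, and scripts were tested on simulated data. Alternatives are given at the end.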

Additional observations from a re-analysis of the deposited data

How the results depend on the processing

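Counts of calls moved with the centre, the filter and the fold. Against 145 higher and 814 lower, centring on the summed occupancy gave 243 and 460, on marked symbols 300 and 390, and level-matched centring 288 and 386. A minimum mean of 40 gave 24 and 428, no filter 4066 and 1360, and a 2-fold call 25 and 67. With a pseudocount of 5, 78 were called higher and 619 lower, and the median before centring was −0.36. Subtracting the median of olfactory receptor symbols gave 220 and 844. A further 3 settings, chosen after seeing the data, concern displaced entries. Leaving them out gave 137 and 797, reading their E17.5 values in the other order 137 and 800, and leaving them out with level-matched centring 285 and 365. Why the counts differ was not tested beyond what each setting itself changes.

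The direction of Nfix turned with the entry that has the largest sum of the libraries compared (−0.98). That of Zfp710 turned with this entry (−1.22), with the mean over entries (−0.20) and in the other order (−0.33). In the other order the changes became 0.22 for H2-DMa, 1.22 for H2-DMb2, 1.15 for H2-Ea, 0.42 for H2-Eb1, 1.09 for H2-Eb2, −0.063 for H2-Ke6, 0.68 for H2-M1, 0.42 for H2-M3, 0.42 for H28, 1 for H2afb1, −0.68 for H2afv, −0.024 for H2afx, −0.27 for H2afy2, −0.20 for Nup62-il4i1 and 0.53 for Nup62cl.

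The outer segment list lay above the median of the symbols compared under every alternative run, by 0.25 to 0.40, and the cell cycle list below it, by 0.10 to 0.24. Of the 37 lists, 17 changed side under at least 1 alternative, among them the progenitor, amacrine, horizontal, Müller glia, rod, cone, photoreceptor regulator, receptor, endothelial, erythroid, ribosomal, oxidative phosphorylation and zinc finger lists and the study's list of RNA that goes up. No paired analysis was possible because each stage has 1 library. At the lower depth of PN1, 3 reads equal an occupancy of 2.84.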

Other observations

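Among immediate early and stress genes, 1 of 36 was called higher (2.78%, against 1.14% of all marked symbols) and 2 lower (5.56%, against 6.41%). Ddit4, a stress-induced inhibitor of mTOR signalling, had 109 and 45 (−0.84, −1.34 to −0.39) and 145 at PN15. Per1, a clock gene, had 114 and 54 (−0.65, −1.11 to −0.24) and 167 at PN15, and its call ended with level-matched centring (−0.55). The time of day of collection is not given in the sources used here.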
